A study of Homo sapiens with 18 samples.

Results

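The hnRNP and SR splicing factors are 51 genes of the 58302 in the expression table. They were chosen by name: every gene that GENCODE release 29 classes as protein-coding and whose symbol starts with HNRNP (27 genes) or SRSF (12 genes), together with the TRA2, U2AF, PTB, RBFOX, MBNL and ESRP genes of the list. Expression was measured by RNA-seq in the pancreatic ductal carcinoma cell line PANC-1, in 3 libraries of shCtrl cells (stable lentiviral control vector) and 3 libraries of shNAT10 cells (stable lentiviral shRNA against NAT10, the acetyltransferase that places N4-acetylcytidine, ac4C, on RNA). ac4C was mapped by acRIP-seq, in which fragments bound by an ac4C antibody are sequenced beside the input, in 3 IP and 3 input samples of each group. Both groups come from 1 cell line, the labels do not say which shRNA sequence was used, and nothing says that the libraries came from separate cultures, so p-values measure only the spread between these samples, which may be technical.

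Serine and arginine-rich (SR) proteins bind exonic enhancers and recruit the spliceosome, whereas heterogeneous nuclear ribonucleoproteins (hnRNPs) often bind silencers and repress nearby splice sites. Many genes of both families limit their own output through a poison exon or a retained intron, which yields a transcript that is degraded by nonsense-mediated decay (NMD) or stays in the nucleus. ESRP, RBFOX, MBNL and PTB proteins set cell type specific exons, and the U2AF heterodimer recognises the end of the intron.

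Sequences under acRIP peaks are printed for 6 genes as examples. The genes were picked by hand and peaks with UTR bases were left out. Except for HNRNPUL1, the peak with the highest fold enrichment was taken among short unspliced peaks of the gene, for HNRNPL among those shared between the lists. These sequences therefore do not stand for the peaks as a whole. For HNRNPUL1, the part of a peak without UTR bases is printed. The sequences were read 5′ to 3′ on the gene's strand from the GENCODE 29 transcripts on GRCh38, and no base of them is annotated as UTR. In the first of them, the start of the HNRNPUL1 coding sequence at chr19:41264504-41264696 (plus strand), capitals mark the 163 bases that lay in a peak of both groups.
HNRNPUL1: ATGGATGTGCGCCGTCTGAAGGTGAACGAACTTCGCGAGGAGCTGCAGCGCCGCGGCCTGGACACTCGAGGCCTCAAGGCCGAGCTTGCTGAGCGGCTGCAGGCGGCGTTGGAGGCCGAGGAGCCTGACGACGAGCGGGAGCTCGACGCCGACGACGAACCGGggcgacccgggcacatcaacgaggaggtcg
For HNRNPL, at chr19:38840766-38841005 (minus strand) inside an intron that only retained-intron transcripts keep, capitals mark the 180 bases of the shNAT10 peak that were also in the shCtrl peak.
HNRNPL: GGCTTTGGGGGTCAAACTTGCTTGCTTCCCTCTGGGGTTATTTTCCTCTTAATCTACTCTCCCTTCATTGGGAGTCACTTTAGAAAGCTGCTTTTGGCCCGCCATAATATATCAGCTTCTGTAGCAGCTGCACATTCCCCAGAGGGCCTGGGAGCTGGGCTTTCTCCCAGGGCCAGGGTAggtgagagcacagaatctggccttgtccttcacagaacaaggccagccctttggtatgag
In the next 4 sequences, capitals mark bases in the coding sequence (CDS) of a protein-coding transcript, and lower case marks intron sequence of such transcripts that other annotated isoforms keep. The peaks were at chr10:68338340-68338549 (HNRNPH3, plus strand, shCtrl), chr19:805384-805623 (PTBP1, plus strand, shCtrl), chr1:70230114-70230324 (SRSF11, plus strand, shCtrl) and chr3:185928014-185928253 (TRA2B, minus strand, shNAT10).
HNRNPH3: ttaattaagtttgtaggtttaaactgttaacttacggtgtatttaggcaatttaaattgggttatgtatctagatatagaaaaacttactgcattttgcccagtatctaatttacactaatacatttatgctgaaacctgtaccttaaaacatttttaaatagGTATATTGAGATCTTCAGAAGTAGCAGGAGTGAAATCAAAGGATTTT
PTBP1: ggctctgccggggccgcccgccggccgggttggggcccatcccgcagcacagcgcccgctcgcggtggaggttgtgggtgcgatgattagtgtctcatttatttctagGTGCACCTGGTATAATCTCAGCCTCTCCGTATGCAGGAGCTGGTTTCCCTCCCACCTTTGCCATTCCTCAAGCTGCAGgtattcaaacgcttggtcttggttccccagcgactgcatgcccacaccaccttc
SRSF11: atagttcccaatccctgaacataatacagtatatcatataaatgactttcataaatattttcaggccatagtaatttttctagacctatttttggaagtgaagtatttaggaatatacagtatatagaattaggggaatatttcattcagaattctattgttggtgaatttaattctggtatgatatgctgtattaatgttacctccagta
TRA2B: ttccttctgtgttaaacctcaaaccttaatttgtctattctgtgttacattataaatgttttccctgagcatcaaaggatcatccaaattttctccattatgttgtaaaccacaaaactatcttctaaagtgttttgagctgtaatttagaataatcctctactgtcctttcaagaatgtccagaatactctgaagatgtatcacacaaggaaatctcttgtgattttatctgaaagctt
The HNRNPH3 peak held 47 coding bases of 210 and the PTBP1 peak 78 of 240, and those of SRSF11 and TRA2B held 0.

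NAT10 was read at 31.6, 27.7 and 28.6 FPKM (fragments per kilobase of transcript, scaled by library size) in the shCtrl libraries and at 7.92, 8.43 and 7.90 FPKM in the shNAT10 libraries. It fell by 1.84 on the log2 scale (SE 0.08, limma adjusted p = 3.85e-05). FPKM values were scaled to between 15831720 and 23521762 reads a library. Of 6 ductal epithelial markers, 6 had a mean of at least 1 FPKM, and their summed level ranged from 2792 to 3753 FPKM in shCtrl and from 1497 to 1678 FPKM in shNAT10, with the keratins KRT8 and KRT18 accounting for most of it. Of these markers limma called the 4 keratins lower and 1 gene, the adhesion molecule EPCAM, higher, from 4.01, 5.04 and 5.55 FPKM in shCtrl to 22.4, 24.2 and 21.1 FPKM in shNAT10 (log2 fold change 2.20, SE 0.13, adjusted p = 6.88e-05). E-cadherin (CDH1) was at 4.83, 3.36 and 4.53 against 4.95, 5.21 and 5.77 FPKM and was not called (adjusted p = 0.111). The 6 leukocyte markers summed to 2.28 to 2.96 FPKM in shCtrl and 1.41 to 1.62 FPKM in shNAT10, with CD3E at 0, and the 3 hepatocyte markers to 0.370 to 0.626 and 0.508 to 0.866 FPKM. The 7 fibroblast and endothelial markers summed to 28.8 to 34.0 and 17.3 to 20.9 FPKM, nearly all of it COL1A1, and the 4 neuron markers to 12.5 to 15.0 and 18.4 to 19.3 FPKM, mainly SYT1. The part of these shifts in the results was not tested. Replicate 2 of shCtrl stood apart: read counts over genes differed from those of replicates 1 and 3 with a chi-square per degree of freedom of 53.88 and 32.33, against 7.75 between replicates 1 and 3 and 2.30 to 3.68 among the shNAT10 libraries.

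Splicing regulators moved in both directions after NAT10 knockdown. Of 51 genes, 43 reached 1 FPKM in at least 3 libraries and were tested, and 21 of them passed an adjusted p of 0.05 in limma, 9 higher and 12 lower. This is 48.8%, beside 42.0% of all 12982 genes tested (20.8% higher, 21.2% lower). The median log2 fold change was 0.02 for the 43 genes and -0.01 for all genes. On the TPM scale the median of all genes moved by 0.11, and the split became 14 higher and 9 lower. Without shCtrl replicate 2, it was 13 higher and 15 lower. The higher calls came to 5 without shNAT10 replicate 2 and to 5 without shNAT10 replicate 3. The share of all genes called under these settings is not given here, so these shifts cannot be read as particular to splicing regulators. A fold change beyond 1 on the log2 scale was passed by 4 genes, each lower (3.57% of all genes were called lower and 2.91% higher at that limit). Without HNRNPA1, HNRNPA1L2 and HNRNPA1P48, which may share reads, 1 gene passed it. The libraries of the groups did not overlap for 26 of the 43 genes (60.5%), beside 56.5% of all genes.

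**Figure D1:**
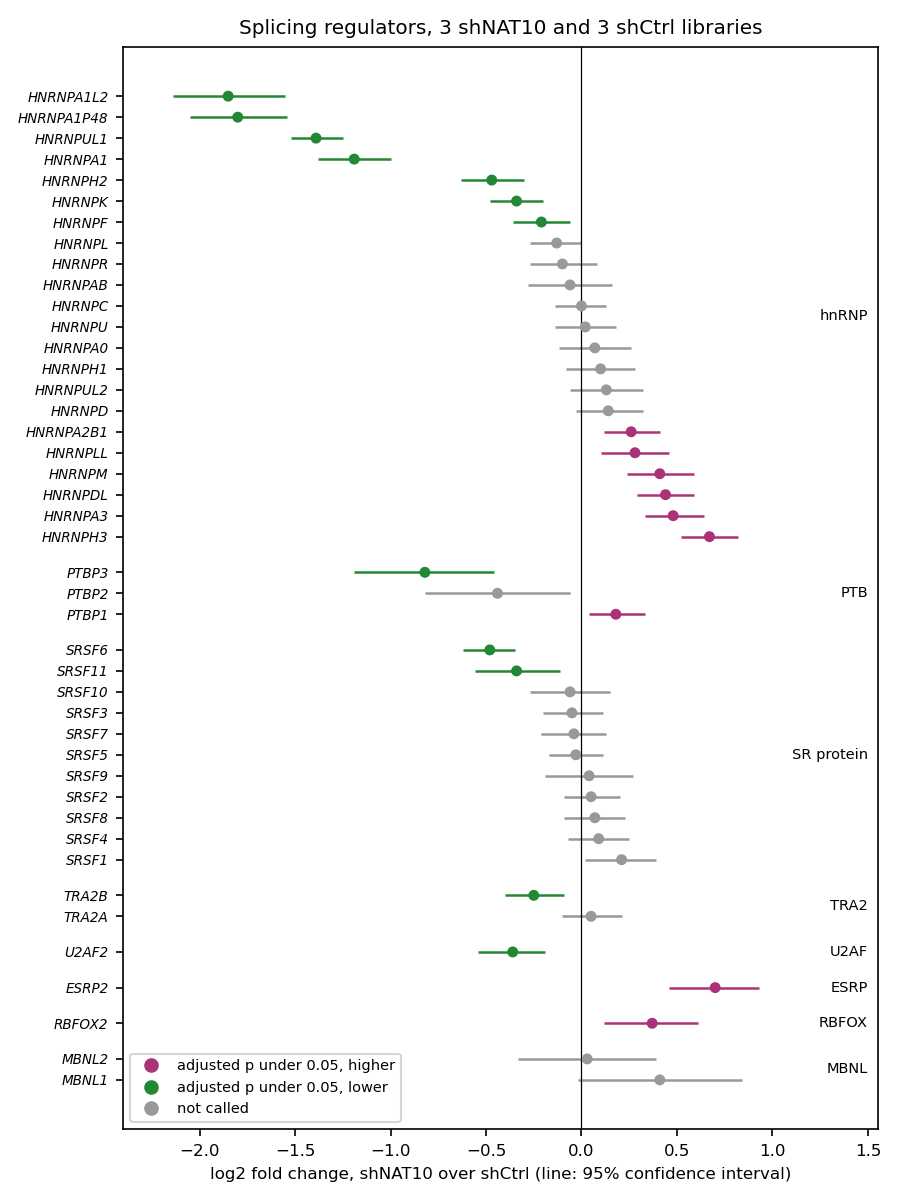
Log2 fold change of the 43 tested splicing regulators (x axis, shNAT10 over shCtrl, 3 libraries each) with limma's 95% confidence interval as a line, ordered by family on the y axis. The 4 genes beyond -1 are HNRNPA1L2, HNRNPA1P48, HNRNPUL1 and HNRNPA1, and 9 of 11 SR proteins were not called.

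HNRNPUL1, an RNA-binding protein of the hnRNP U-like group with roles in RNA processing and DNA repair, had the smallest adjusted p of the family. Its level was 81.3, 79.2 and 79.5 FPKM in shCtrl and 30.6, 30.7 and 30.4 FPKM in shNAT10, so the groups were far apart and each was tight. It fell by 1.39 on the log2 scale (SE 0.06, limma adjusted p = 3.84e-05, 0.00111 at most under the 15 alternatives). Its sister HNRNPUL2 was at 11.6, 12.7 and 10.9 FPKM in shCtrl and 13.2, 12.8 and 12.5 FPKM in shNAT10, and was not called (log2 fold change 0.13, SE 0.08, adjusted p = 0.239). Of the HNRNPUL2 exon bases, 44.1% are shared with the readthrough gene HNRNPUL2-BSCL2 on the same strand.

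HNRNPA1, an abundant silencer-binding hnRNP and translation regulator, was read at 67.0, 80.0 and 71.3 FPKM in shCtrl and at 31.5, 31.2 and 32.7 FPKM in shNAT10. It fell by 1.19 on the log2 scale (SE 0.08, limma adjusted p = 0.000123). HNRNPA1L2, a copy on chromosome 13 without introns, had 3.98, 4.71 and 3.94 FPKM in shCtrl and 1.05, 1.11 and 1.13 FPKM in shNAT10 and fell by 1.85 (SE 0.12, adjusted p = 0.000123). HNRNPA1P48, which is named as a pseudogene but classed as protein-coding in the annotation, had 38.1, 46.4 and 35.3 FPKM in shCtrl and 11.4, 10.8 and 11.8 FPKM in shNAT10 and fell by 1.80 (SE 0.11, adjusted p = 8.38e-05). These 3 genes cannot be counted as separate results, because the copies are nearly identical in sequence to HNRNPA1 and reads may be split between them.

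Reads were therefore also summed over HNRNPA1 and its 76 named copies, 20 of which had any read. Scaled by library size (CPM), the sum was 386, 459 and 402 in shCtrl and 165, 165 and 171 in shNAT10. With the copies summed, a setting chosen after seeing the data, HNRNPA1 fell by 1.31 on the log2 scale (SE 0.08, adjusted p = 2.46e-05, limma voom on recovered reads). The copies took 28.4%, 28.2% and 27.0% of these reads in shCtrl and 21.4%, 22.1% and 21.3% in shNAT10, so the share assigned to copies was lower in every shNAT10 library. Without the 3 HNRNPA1 genes, 9 of 40 tested splicing regulators were higher and 9 were lower (45.0%).

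**Figure D2:**
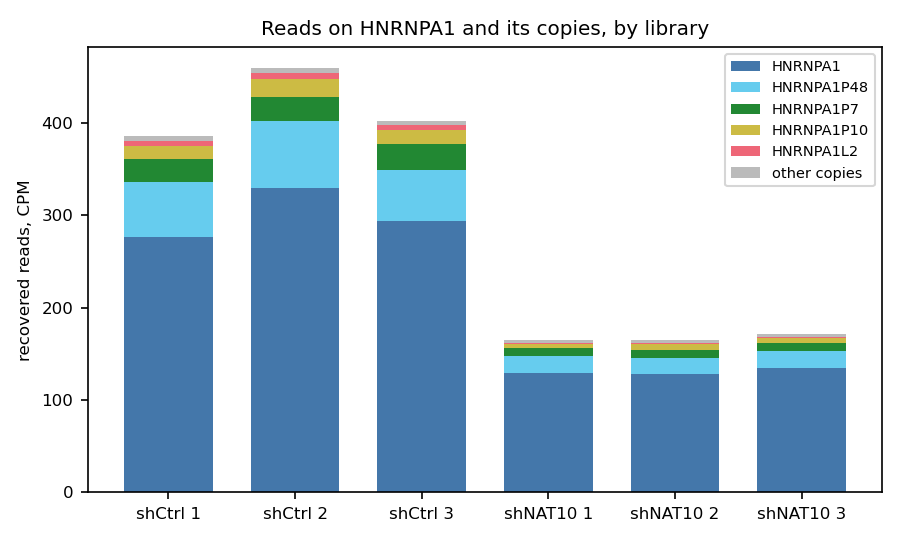
Recovered reads scaled by library size (CPM, y axis) on HNRNPA1 and its copies in each of the 6 RNA-seq libraries (x axis), stacked by gene. The bars of shCtrl reach 386 to 459 and those of shNAT10 165 to 171, and HNRNPA1 itself is the tallest segment of each bar.

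Of the other A and B group hnRNPs, which bind related sequences, HNRNPA2B1 and HNRNPA3 rose. HNRNPA2B1 was at 245, 259 and 246 FPKM in shCtrl and 292, 298 and 311 FPKM in shNAT10, a rise of 0.26 (SE 0.06, limma adjusted p = 0.0130). The call was lost without the filter (0.0591), without shCtrl replicate 3 (0.0625) and without shNAT10 replicate 2 or 3 (up to 0.0741). HNRNPA3 was at 61.3, 64.8 and 65.7 FPKM in shCtrl and 85.1, 91.9 and 91.1 FPKM in shNAT10, a rise of 0.48 (SE 0.06, adjusted p = 0.00143). HNRNPA0 and HNRNPAB were not called, with log2 fold changes of 0.07 and -0.06. Within each library, HNRNPA2B1 exceeded HNRNPA1 by 1.69 to 1.87 on the log2 scale in shCtrl and by 3.21 to 3.25 in shNAT10, a difference of 1.45 that does not depend on library scaling.

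The F and H group binds G-rich elements, and its members split. HNRNPH3 was at 44.2, 43.5 and 44.9 FPKM in shCtrl and 66.4, 71.1 and 73.7 FPKM in shNAT10 and rose by 0.67 (SE 0.06, limma adjusted p = 0.000404). HNRNPH2 was at 67.7, 78.1 and 74.1 FPKM in shCtrl and 52.0, 53.5 and 53.4 FPKM in shNAT10 and fell by 0.47 (SE 0.07, adjusted p = 0.00255). HNRNPH1 overlapped between groups (94.0, 80.5 and 88.2 against 90.0, 94.8 and 96.8 FPKM) and was not called (adjusted p = 0.317). HNRNPF was at 153, 149 and 146 FPKM in shCtrl and 136, 124 and 128 FPKM in shNAT10, a fall by 0.21 (limma adjusted p = 0.0341). The call was lost under quantile normalization (0.260), TPM (0.287) and the replicate block (0.0607). It was also lost without the filter (0.0819), without the mean-variance trend (0.0608) and without any 1 library other than shCtrl replicate 2 (0.0604 to 0.148). The log2 ratio of HNRNPH3 to HNRNPH2 lay between -0.84 and -0.61 in shCtrl and between 0.35 and 0.46 in shNAT10, so it was higher in every shNAT10 library. Which gene of the pair is higher depends on the transcript lengths behind FPKM (3356 and 2223 bases), so only the change in ratio is read. Of the HNRNPH2 exon bases, 16.3% are shared with the RPL36A-HNRNPH2 readthrough gene.

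Among the remaining hnRNPs, HNRNPDL, a relative of HNRNPD (AUF1), was at 34.9, 37.7 and 35.8 FPKM in shCtrl and 47.5, 50 and 49.6 FPKM in shNAT10 and rose by 0.44 (SE 0.06, limma adjusted p = 0.00190). HNRNPM was at 76.7, 85.1 and 72.3 FPKM in shCtrl and 103, 104 and 104 FPKM in shNAT10 and rose by 0.41 (SE 0.07, adjusted p = 0.00500). HNRNPLL, a regulator of CD45 splicing in lymphocytes, was at 18.7, 17.3 and 20.0 against 22.5, 23.5 and 22.1 FPKM and rose by 0.28 (limma adjusted p = 0.0237). The call was lost under the replicate block (0.0524) and without any 1 of the shNAT10 libraries (0.0649 to 0.0967). HNRNPK, which binds C-rich RNA, was at 273, 251 and 268 FPKM in shCtrl and 209, 207 and 209.8 FPKM in shNAT10 and fell by 0.34 (SE 0.06, adjusted p = 0.00479), but not under quantile normalization (0.0944). HNRNPC, HNRNPD, HNRNPL, HNRNPR and HNRNPU were not called. The summed level of the 27 hnRNP genes was 1841 ± 34.2 FPKM in shCtrl and 1763 ± 22.4 FPKM in shNAT10 (SD, n = 3).

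PTB proteins repress exons with pyrimidine-rich flanks, and PTBP1 is the main form outside neurons. PTBP3 was at 21.0, 14.1 and 20.3 FPKM in shCtrl and 9.73, 10 and 11.0 FPKM in shNAT10, with shCtrl replicate 2 the lowest control and still above all shNAT10 libraries. It fell by 0.82 (SE 0.16, limma adjusted p = 0.00586). PTBP1 was at 76.1, 81.2 and 76.5 against 89.5, 90.0 and 86.1 FPKM, and its rise of 0.18 (adjusted p = 0.0451) was lost under 10 of the 15 alternatives, among them the absence of any 1 library other than shCtrl replicate 2 (0.0813 to 0.162). PTBP2, the neuronal form, was low, at 1.84, 1.81 and 1.85 against 1.15, 1.57 and 1.29 FPKM, and was not called (log2 fold change -0.44, adjusted p = 0.0622), although voom on the recovered reads called it (0.0138). PTBP1 exceeded PTBP3 by 1.85, 2.52 and 1.91 on the log2 scale in the shCtrl libraries and by 3.19, 3.15 and 2.96 in the shNAT10 libraries.

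Within-library log2 ratios were taken for 7 pairs of sister genes chosen after their values were seen, so they are given without a test. The change in ratio was 1.51 for HNRNPUL2 over HNRNPUL1, 1.45 for HNRNPA2B1 over HNRNPA1, 1.14 for HNRNPH3 over HNRNPH2, 1.01 for PTBP1 over PTBP3, 0.42 for HNRNPLL over HNRNPL, and 0.30 for both TRA2A over TRA2B and HNRNPDL over HNRNPD.

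**Figure D3:**
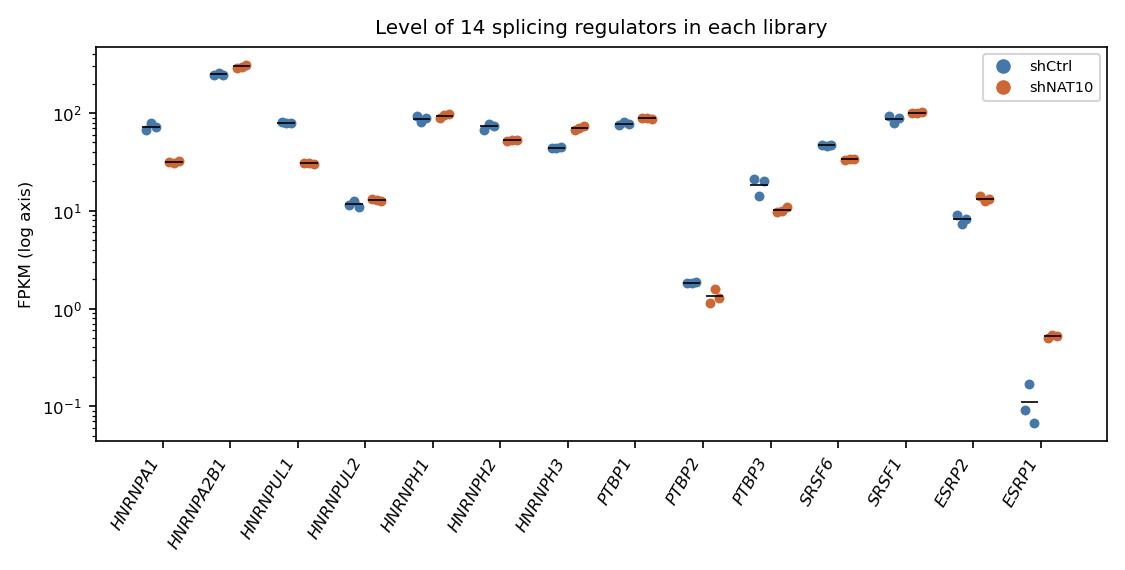
Level in FPKM (y axis, log scale) of 14 splicing regulators (x axis) in each of the 3 shCtrl and 3 shNAT10 libraries, 1 point a library, with the group mean as a line. HNRNPA1 and HNRNPUL1 dropped to between 30.4 and 32.7 FPKM, while their sisters HNRNPA2B1 and HNRNPUL2 did not fall.

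Few SR proteins were called. Of 12 genes, 11 were tested, and limma called 2 lower and 0 higher (1 higher at an unadjusted p under 0.05, 0 higher by voom), which is 18.2% beside 42.0% of all genes tested. The median log2 fold change was -0.03 (-0.01 for all genes). TPM called 3 higher and 1 lower, and without shCtrl replicate 2 there were 2 higher and 2 lower, again without a share of all genes to set beside them. SRSF6, an enhancer-binding SR protein, was at 47.4, 46.5 and 46.8 FPKM in shCtrl and 33.1, 34.0 and 33.6 FPKM in shNAT10, the clearest separation of the family. It fell by 0.48 (SE 0.06, limma adjusted p = 0.000866, 0.00850 at most under the alternatives). SRSF11, at 54.4, 44.9 and 56.2 against 39.7, 41.6 and 41.3 FPKM, fell by 0.34 (SE 0.09, limma adjusted p = 0.0269). The call was lost under TPM (0.176), without the filter (0.0572) and without any 1 library other than shCtrl replicate 2 (0.0556 to 0.0955). SRSF1 was higher in all shNAT10 libraries (100, 101 and 102 FPKM) than in shCtrl (94.3, 79.2 and 89.7 FPKM) without passing the test (log2 fold change 0.21, adjusted p = 0.0683), and 56.6% of its exon bases also belong to the same-strand gene AC015813.2. For SRSF2, SRSF3, SRSF4, SRSF5, SRSF7, SRSF8, SRSF9 and SRSF10 the log2 fold changes lay between -0.06 and 0.09. Those of SRSF3, SRSF5, SRSF7, SRSF9 and SRSF10 changed sign under TPM or with 1 library left out, so they have no direction here. The summed level of the 12 genes was 572 ± 2.91 FPKM in shCtrl and 559 ± 6.97 FPKM in shNAT10 (SD, n = 3).

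TRA2B, which like its sister TRA2A binds GAA-rich enhancers, was at 47.6, 45.5 and 48.3 FPKM in shCtrl and 38.5, 38.8 and 41.8 FPKM in shNAT10 and fell by 0.25 (SE 0.06, limma adjusted p = 0.0206). The call was lost under TPM (0.207) and without shCtrl replicate 3 or shNAT10 replicate 1 or 2 (0.0823 to 0.0911). TRA2A was not called (log2 fold change 0.05, adjusted p = 0.546). U2AF2, the large U2AF subunit that binds the polypyrimidine tract, was at 203, 229.9 and 201 FPKM in shCtrl and 171, 164 and 157 FPKM in shNAT10 and fell by 0.36 (SE 0.08, adjusted p = 0.00840). U2AF1, the small subunit, read only 0.847 to 0.964 FPKM over the 6 libraries and was not tested. Its near-identical copy U2AF1L5 took 11 to 19 reads a library, beside 67 to 105 on U2AF1. How reads that match both copies were treated is not stated, so the U2AF1 level is uncertain.

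The epithelial splicing regulators were both higher in shNAT10 cells. ESRP2 was at 9.13, 7.32 and 8.16 FPKM in shCtrl and 14.1, 12.7 and 13.1 FPKM in shNAT10 and rose by 0.70 (SE 0.10, limma adjusted p = 0.00180). ESRP1 was too low for the filter, at 0.0917, 0.170 and 0.0677 FPKM in shCtrl and 0.503, 0.532 and 0.525 FPKM in shNAT10. Without the filter its log2 fold change was 1.59 (SE 0.31, adjusted p = 0.0169) on the log2(FPKM + 0.1) scale. RBFOX2, which binds GCATG elements and is active in mesenchymal splicing, was at 20.7, 15.7 and 19.0 against 23.2, 24.0 and 23.8 FPKM. Its rise of 0.37 (SE 0.11, limma adjusted p = 0.0291) was lost without the filter (0.0615) and without shCtrl replicate 3 or any 1 of the shNAT10 libraries (0.0663 to 0.0922). MBNL1 and MBNL2 were not called, and shCtrl replicate 2 was the lowest library for both (18.3 and 33.5 FPKM). Without that library MBNL2 had a log2 fold change of -0.16 (adjusted p = 0.0298) in place of 0.03. MBNL1 passed the test without shCtrl replicate 1 (0.0286).

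The other genes below the filter were HNRNPCL1, HNRNPCL2, HNRNPCL3, HNRNPCL4, SRSF12 and HNRNPUL2-BSCL2, each at 0.126 FPKM or below in every library. In all, 22 tested splicing regulators were not called, with log2 fold changes from -0.44 to 0.41, and the groups did not overlap for 5 of them. Without shCtrl replicate 2, 7 of them passed the test (HNRNPD, HNRNPL, HNRNPR, HNRNPUL2, MBNL2, SRSF1 and SRSF9, adjusted p from 0.0063 to 0.0448). The share of all genes gained in that setting is not given here. Reads of overlapping genes on the other strand do not affect a stranded count, but the sources used here do not give the strand setting of the counting step, which bears on SRSF9, SRSF2, HNRNPU and MBNL1.

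Other parts of the splicing machinery were also examined by lists. Of all genes tested, 42.0% were called (20.8% higher, 21.2% lower), and no list was tested against that share. These counts therefore cannot be read as particular to the splicing machinery. Of 8 tested genes for SR protein kinases and import, 4 were called, 2 higher and 2 lower. SRPK2, a cytoplasmic SR protein kinase, rose by 0.74 (SE 0.11, limma adjusted p = 0.00225), and TNPO3, the importin of SR proteins, rose by 0.69 (adjusted p = 0.000264). The nuclear kinases CLK1 and CLK4 fell by 0.55 (adjusted p = 0.00277) and 0.35 (adjusted p = 0.0176), the latter not under TPM (0.133) nor without shCtrl replicate 3 or shNAT10 replicate 1 or 2 (0.0645 to 0.0717). Of 6 hnRNP proteins with other symbols, limma called 0, with 3 at an unadjusted p under 0.05 and 1 called by voom, and without shCtrl replicate 2 it called 3 higher and 1 lower. Of 17 U1 and U2 snRNP proteins, 3 were higher and 5 lower (47.1% called). Of the 16 tested other splicing regulators described below, 37.5% were called. The lower calls came to 2 without shCtrl replicate 3 or any 1 of the shNAT10 libraries and also without the filter, in each case without SF3B4, SF3B5 and SNRPB2, and the higher calls came to 6 under TPM and 7 without shCtrl replicate 2. The U1 protein SNRPC fell by 0.96 (SE 0.10, limma adjusted p = 0.000620) and the SF3b subunit SF3B5 by 0.49 (adjusted p = 0.0403). The SF3B5 call was lost without the filter (0.0943), without the mean-variance trend (0.0596) and without any 1 library other than shCtrl replicates 1 and 2 (0.0609 to 0.123). The U2 proteins PHF5A and SF3B2 rose by 0.87 (adjusted p = 0.00183) and 0.82 (adjusted p = 0.000848). Of 16 tested other splicing regulators, 3 were higher and 3 lower (5 and 5 without shCtrl replicate 2, 1 and 2 without shNAT10 replicate 2), with NONO falling by 0.57 (adjusted p = 0.000444), RBM39 by 0.39 (adjusted p = 0.00233), and CELF1 and RBM5 rising by 0.45 (adjusted p = 0.00747) and 0.30 (adjusted p = 0.0113, 0.0585 without shNAT10 replicate 2).

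The NMD factors, which degrade the poison exon isoforms of SR and hnRNP genes, had more calls higher than lower. Of 14 tested, 7 were higher and 1 was lower (57.1% called, beside 42.0% of all genes tested, 20.8% higher and 21.2% lower). The median log2 fold change was 0.29, beside -0.01 for all genes, and 6 to 8 were higher under the alternatives. UPF2, a core NMD factor, was at 8.03, 6.38 and 8.28 FPKM in shCtrl and 15.1, 15.1 and 15.8 FPKM in shNAT10 and rose by 1.02 (SE 0.11, limma adjusted p = 0.000582). SMG9 rose by 0.54 (adjusted p = 0.00336). SMG8, a regulator of the SMG1 kinase, went the other way, from 5.40, 3.88 and 5.42 FPKM to 1.94, 2.06 and 1.90 FPKM, a fall by 1.26 (SE 0.15, adjusted p = 0.000880).

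The acRIP-seq data were deposited as 1 peak list a group, so the replicates cannot be compared and no difference between the lists can be tested. Intervals of shares (95% Wilson) cover counting error only, and those of peak shares treat peaks on the same gene as independent. Of 51 genes, 35 had a peak in the shCtrl list and 35 in the shNAT10 list, 29 had one in both and 10 in neither. Among the 43 with a mean of at least 1 FPKM in both groups, 34 (79.1%, interval 64.8 to 88.6) had a shCtrl peak and 33 (76.7%, interval 62.3 to 86.8) a shNAT10 peak, beside 56.3% and 54.5% of 10679 protein-coding genes at that level. The 43 genes include HNRNPA1, HNRNPA1L2 and HNRNPA1P48 as separate genes. The median level was 53.1 FPKM for these 43 genes and 10.3 FPKM for those protein-coding genes, and the part of expression in this share was not tested. Among the stronger 50% of each list by fold enrichment the shares were 30.2% of these 43 genes in shCtrl (interval 18.6 to 45.1) and 37.2% in shNAT10 (interval 24.4 to 52.1), beside 34.0% and 32.7% of the protein-coding genes, which lie within these intervals. The genes without a peak were HNRNPCL1 to HNRNPCL4, SRSF12, HNRNPD, HNRNPH2, SRSF4, MBNL2 and ESRP2. Peaks were in the shCtrl list alone for HNRNPH3, HNRNPR, PTBP2, SRSF2, TRA2A and U2AF1, and in the shNAT10 list alone for ESRP1, HNRNPUL2-BSCL2, RBFOX2, SRSF8, SRSF9 and U2AF2. Of these, the HNRNPUL2-BSCL2 peak lay on bases of HNRNPUL2.

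The lists held 98 and 99 peaks on splicing regulators, and by fold enrichment alone these were weaker than most. That measure is a ratio to the input. The median level was 53.1 FPKM for the expressed splicing regulators and 10.3 FPKM for expressed protein-coding genes, and its part in the lower enrichment was not tested. The median enrichment (fold of IP over input) was 14.1 in shCtrl and 11.3 in shNAT10, beside 49.3 and 45.2 over all peaks. Of the shCtrl peaks on splicing regulators, 33 of 98 (33.7%, interval 25.1 to 43.5) had at least 1 base in common with the other list. The count from the shNAT10 side was 35 of 99 (35.4%, interval 26.6 to 45.2), and these shares stood beside 25.6% and 27.4% of all peaks. Among the stronger 50% they were 23.8% and 29.2%, beside 23.1% and 24.7%. HNRNPUL1 had 4 shCtrl peaks, each of which shared bases with 1 of the 5 shNAT10 peaks, and its level fell. Its peak at the start of the coding sequence, printed above, had a fold enrichment of 187 in shCtrl and 71.4 in shNAT10. The log10 p-value that the unnamed peak caller gave this peak went the other way, at -79.2 in shCtrl and -227 in shNAT10. HNRNPA1 had 2 peaks in shCtrl and 5 in shNAT10, but how reads that match it and its copies were placed is not stated. HNRNPH3, whose level rose, had 5 and 0. SRSF6 had 4 and 1, each in the 3′ UTR, with no shared base.

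**Figure D4:**
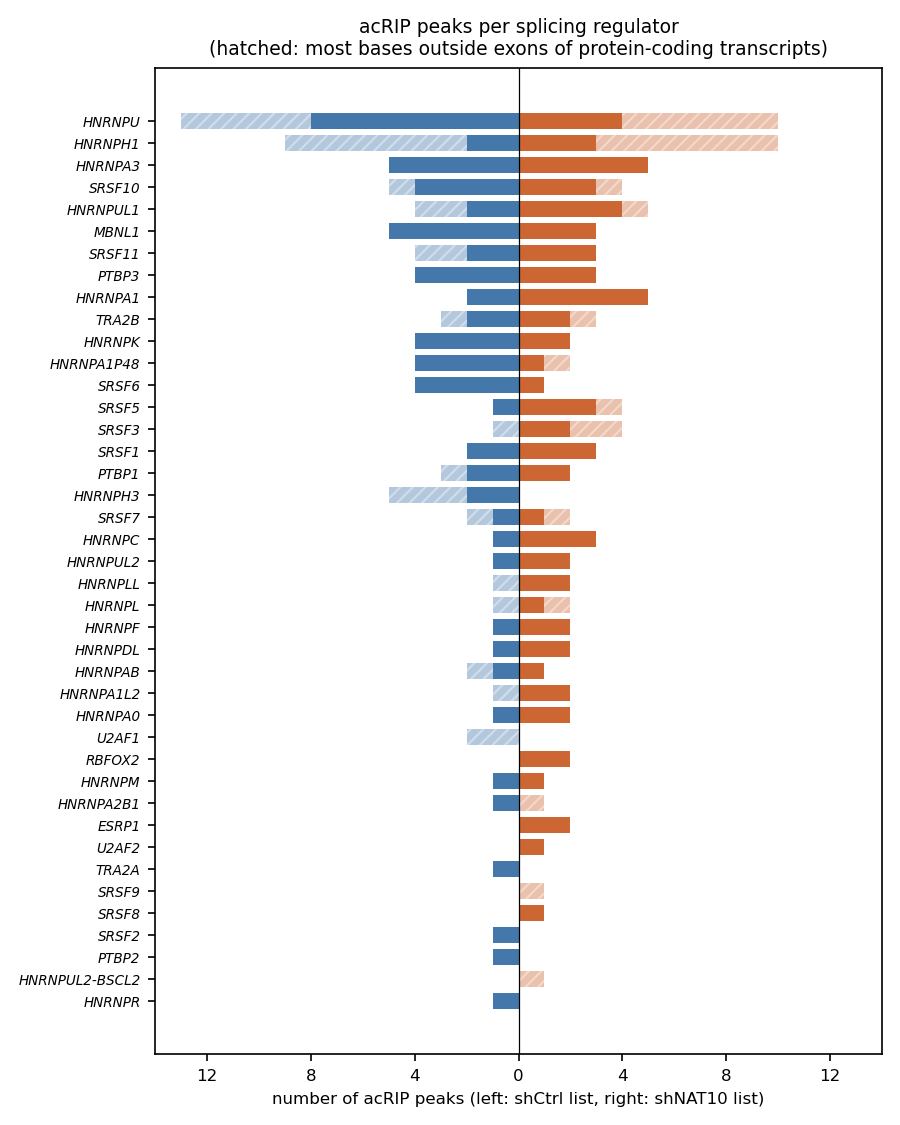
Number of acRIP peaks (x axis) on each splicing regulator with a peak (y axis), shCtrl list to the left and shNAT10 list to the right, with peaks that lie mostly outside exons of protein-coding transcripts hatched. HNRNPU (13 and 10 peaks) and HNRNPH1 (9 and 10) had the most, and HNRNPH3 had peaks in the shCtrl list alone.

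Of the peaks with their midpoint on the longest coding transcript, 23 of 66 (34.8%, interval 24.5 to 46.9) were in the CDS in shCtrl and 37 of 65 (56.9%, interval 44.8 to 68.2) in shNAT10, and 59.1% and 41.5% were in the 3′ UTR. Over all peaks the CDS share was 59.0% and 59.1%. By length, 32.2% of these transcripts is CDS for splicing regulators and 44.1% for expressed protein-coding genes. The intervals of the lists overlap, which is no test of the difference. They are also too narrow where many peaks lie on 1 gene, as on HNRNPU (13 and 10) and HNRNPH1 (9 and 10). With 1 list a group the change in share has no replicate check.

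Many peaks lay outside the exons of protein-coding transcripts of their gene, a measure chosen after seeing the data. At least 50% of the bases were outside such exons for 30 of 98 shCtrl peaks (30.6%, interval 22.4 to 40.3) and 25 of 99 shNAT10 peaks (25.3%, interval 17.7 to 34.6). Over peaks on all protein-coding genes the shares were 11.0% and 11.7%. The counts include a shCtrl peak assigned to HNRNPA1L2 that lay outside the gene, and the HNRNPUL2-BSCL2 peak, whose bases are in coding exons of HNRNPUL2. With the protein-coding exons of any gene on the strand counted and peaks outside their gene left out, 29 of 97 (29.9%) and 24 of 99 (24.2%) remained, beside 10% and 10.8%. Such bases, from retained introns, NMD isoforms and other non-coding isoforms, make up 31.8% of the annotated exon bases of splicing regulators and 22.3% of those of expressed protein-coding genes. The peaks came from 15 genes in shCtrl and 13 in shNAT10, HNRNPA1L2 and HNRNPUL2-BSCL2 included, and 8 genes were in both. HNRNPH1, with 7 such peaks in each list, and HNRNPU, with 5 and 6, held many of them. Without both genes the shares were 23.7% in shCtrl and 15.2% in shNAT10. The interval of the latter, 8.91 to 24.7, holds the 11.7% of shNAT10 peaks on all protein-coding genes. The intron peak of HNRNPL printed above was in both lists, at a fold enrichment of 14.4 in shCtrl and 54.9 in shNAT10. Those of HNRNPH3 (544), PTBP1 (1520) and SRSF11 (720) were in shCtrl alone, and that of TRA2B (192) in shNAT10 alone. These values are high by selection, because the qualifying peak with the highest fold enrichment was printed. The medians for peaks on splicing regulators were 14.1 in shCtrl and 11.3 in shNAT10. The printed HNRNPH3, SRSF11 and TRA2B sequences are poor in G and C (28.6%, 28.4% and 32.5%). Those of HNRNPL (52.5%) and PTBP1 (60.8%), also intron or mostly intron, are not, and that of HNRNPUL1 is rich (68.9%).

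Bases in NMD transcripts of a gene but in none of its protein-coding transcripts (NMD-only bases) were touched by 11 of 98 shCtrl peaks (11.2%, interval 6.38 to 19.0) and 10 of 99 shNAT10 peaks (10.1%, interval 5.58 to 17.6), beside 4.09% and 4.41% of peaks on all protein-coding genes. The shNAT10 count includes the HNRNPUL2-BSCL2 peak, and with the protein-coding exons of any gene left out as before, the counts were 11 of 97 and 9 of 99 (9.09%), beside 3.34% and 3.70%. Of 50 splicing regulators with a coding transcript, 24 (48.0%) have such bases in the annotation, against 33.4% of expressed protein-coding genes. NMD-only bases make up 4.04% of the annotated exon bases of splicing regulators, against 2.46% for expressed protein-coding genes. SRSF7, known for a poison exon, had a peak wholly on NMD-only bases in both lists, at chr2:38748819-38748999 (fold enrichment 5.02) in shCtrl and chr2:38748670-38748879 (47.7) in shNAT10. SRSF5 had one at chr14:69769695-69769874 (177) and SRSF3 one with 90 such bases at chr6:36600187-36600367 (103), both in shNAT10 alone. In HNRNPU, 4 shCtrl and 4 shNAT10 peaks touched NMD-only bases, and 1 position was shared. HNRNPH1 had 1 such peak in each list. Both genes together held many of the peaks on NMD-only bases, and the shares without them were not taken.

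**Figure D5:**
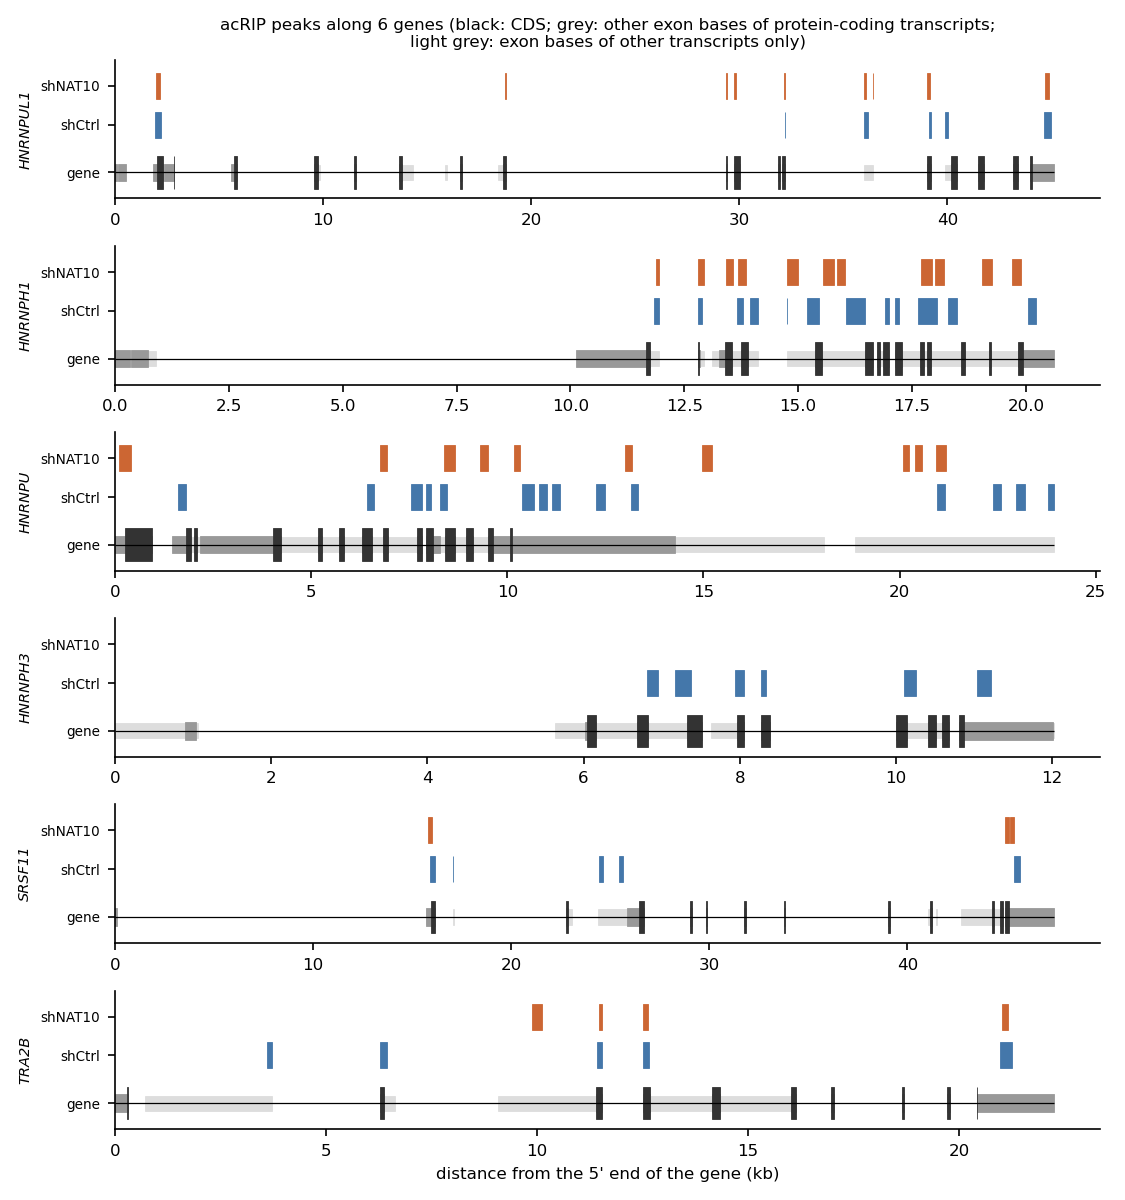
acRIP peaks of the shCtrl (blue) and shNAT10 (orange) lists along 6 splicing regulators, with distance from the 5′ end of the gene in kb on the x axis and exons below. In HNRNPH1, 7 peaks of each list lie mostly on bases outside protein-coding transcripts (light grey or intron), and in HNRNPH3 the 5 peaks are all from shCtrl.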

How the data were processed

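RNA-seq was analysed in 6 samples and acRIP-seq in 12 (IP and input), grouped by the titles of the samples. The authors deposited FPKM values per gene, and the processing notes name HISAT2, HTSeq 0.11.0, DESeq2 1.22.2 and hg38. For acRIP-seq they deposited 1 peak list a group with a fold enrichment (ratio of IP to input) and a p-value per peak. The peak caller is not given in the sources used here. FPKM matched reads divided by the length of the longest transcript in GENCODE 29: 97.0% of values above 0 were whole reads within 0.02, which gave the reads used with voom.

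Genes with at least 1 FPKM in 3 libraries were tested on log2(FPKM + 0.1) with limma 3.58.1 in R 4.3.3 (mean-variance trend, Benjamini-Hochberg adjustment over 12982 genes, threshold 0.05), so fold changes of low genes are understated. Peaks were placed on the longest coding transcript by their midpoint, and at least 1 shared base on the same strand counted as overlap. Named in full were the called members and their sisters, and up to 4 called genes of each other list with the largest change, and TRA2B was added after its values were seen. The members, lists and tests were chosen with earlier results of these data known. The alternatives were a pseudocount of 1, no filter, a minimum of 5 FPKM, quantile normalization, median centring, TPM, no trend, voom, the replicate block, each library left out, and stricter peaks and overlaps. Summing the HNRNPA1 copies, the peaks mostly outside protein-coding exons the protein-coding exons of any gene and the removal of HNRNPH1 and HNRNPU were added after seeing the data. Some single items are not reported here. Replicate numbers did not pair the samples. The steps were tested on simulated data. Python 3.11.15, SciPy 1.17.1 and matplotlib 3.10.9 were used.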

Additional observations from a re-analysis of the deposited data

How the results depend on the processing

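Over the 15 alternatives, the 21 calls among splicing regulators ranged from 14 to 28, both with 1 library left out (higher 5 to 13, lower 9 to 15). The share of all genes called under each alternative is not given here. TPM gave 14 higher calls, and its median log2 fold change of the 43 genes was 0.12, against 0.02 (-0.01 to 0.02 with a library left out). Of the 21 called genes, 13 kept direction and call under every alternative run for them, and 0 changed sign. The replicate block gave 7 higher and 11 lower calls, and since same-numbered samples did not deviate together (correlations -0.04, 0.06 and 0.11) the numbers were not used as pairs. Changes of sign were limited to genes not called: HNRNPAB under quantile normalization (0.02) and TPM (0.05), HNRNPC under both (0.07 and 0.10), and under TPM HNRNPR (0.01), SRSF10 (0.05), SRSF3 (0.06), SRSF5 (0.08) and SRSF7 (0.07). With 1 library left out the ranges were -0.12 to 0.04 for HNRNPAB, -0.03 to 0.01 for HNRNPC, -0.04 to 0.06 for HNRNPU, -0.16 to 0.14 for MBNL2, -0.09 to 0.01 for SRSF7 and -0.03 to 0.15 for SRSF9. For the stronger 50% of each list by fold enrichment, 13 (shCtrl) and 17 (shNAT10) genes carried a peak (30.2% and 37.2% of expressed ones, beside 34.0% and 32.7% of expressed protein-coding genes), 23.8% of shCtrl peaks were shared (23.1% of all), 25% of shNAT10 peaks touched NMD-only bases (4.24%), and 47.6% and 50% lay mostly outside protein-coding exons (11.7% and 13%). These shares rest on few peaks and have no interval here, and the NMD-only share of the shCtrl list is not given. The upper quartile of enrichment of peaks on splicing regulators (38.5 in shCtrl, 42.5 in shNAT10) was below the median of all peaks (49.3 and 45.2). For the 50% with the lowest p-values, 23 genes had a peak in shCtrl. A reciprocal overlap of 50% left 20.4% and 21.2% shared. With at least 50% of a peak's bases required, 6.12% of shCtrl peaks were on NMD-only bases. For the lowest p-values, the reciprocal overlap and this last setting, no share over all genes or peaks is given here. These values therefore cannot be read as particular to splicing regulators. Without HNRNPH1 and HNRNPU, 15.2% of shNAT10 peaks lay mostly outside protein-coding exons, and the interval of this share held that of peaks on all protein-coding genes. The cause of these shifts was not tested. The reads behind each peak are unknown, so depth limits there cannot be stated.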
